A study of Tetranychus urticae with 24 samples.

Results

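The genes tetur07g06850 and tetur07g04600 are the orthologs in the spider mite Tetranychus urticae of the Drosophila gene CncC. They were chosen by these IDs and are 2 of the 19087 genes counted. Their expression was followed in all 6 groups of the series and set, library by library, against the P450 gene CYP392A11 (tetur03g00970). Each library was made from a whole-body pool of adult females, 3 to 5 days old when set out on bean leaf discs, with 4 biological replicates a group, and all mites belonged to the strain JP-R, in which the acaricides cyenopyrafen and cyflumetofen meet resistance. Mites had been sprayed with piperonyl butoxide (PBO, 1000 ppm), S,S,S-tributyl phosphorotrithioate (DEF, 500 ppm), diethyl maleate (DEM, 2000 ppm) or cyclosporin A (CsA, 50 ppm) in a formulation of diluted N,N-dimethylformamide and emulsifier W, sprayed with the formulation alone (FORM) or left unsprayed (CON), and those alive after 24 h were collected. PBO acts on P450 monooxygenases, DEF on carboxyl/choline esterases and CsA on ABC transporters, which they inhibit, and DEM uses up glutathione. The strain had been reared on plants sprayed with cyenopyrafen until the week before. No source used here says that the pools of a group were sprayed separately, so p-values measure the spread between pools. In pools of whole mites, fewer cells of a type and less RNA per cell cannot be told apart.

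CncC, cap 'n' collar isoform C, is a basic leucine zipper transcription factor and the Drosophila counterpart of mammalian NRF2. In Drosophila, Keap1 binds CncC and holds its activity down. When CncC is free it pairs with a small Maf protein, binds antioxidant response elements and induces genes of detoxification, among them P450s, enzymes that attach sugars (UDP-glycosyltransferases, UGTs) and enzymes that conjugate glutathione (glutathione S-transferases, GSTs). Since this switch acts on the protein, the amount of CncC transcript need not follow its activity. CYP392A11 is a P450 of spider mites known to metabolise cyenopyrafen.

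The libraries held 13824851 to 18198286 counted reads (median 15758427), and 12736 genes had enough reads to be tested. The 4 genes used to check the labelled sex and stage, vitellogenins and vasa genes of adult females, were all among them and had at least 900 reads in every library. Their levels differed between groups. The summed level of the vitellogenin genes tetur20g01230 and tetur07g05480, which code for yolk protein, was 1141 to 1380.2 CPM with PBO, 1309 to 1734 CPM with DEF, 778 to 1199 CPM with DEM and 998 to 1202 CPM with CsA, against 827 to 1035 CPM with formulation and 545 to 929 CPM in unsprayed mites. The summed level of the vasa genes tetur10g01960 and tetur10g01980, which mark the germline, was 153 to 208 CPM with PBO, 141 to 164 CPM with DEF, 273 to 321 CPM with DEM and 265 to 321 CPM with CsA, against 252 to 279 CPM with formulation and 244 to 269 CPM in unsprayed mites. With PBO and DEF, yolk genes were thus above and germline genes below their level with formulation. Both CncC orthologs were tested. Gene tetur07g06850 had between 920 and 1538 reads in a library (median 1232), and tetur07g04600 had between 123 and 212 (median 163). Counting error alone gave a coefficient of variation of 2.87% for tetur07g06850 and 7.76% for tetur07g04600. The biological coefficient of variation, edgeR's estimate of variation beyond counting error, was 6.90% for tetur07g06850 and 6.13% for tetur07g04600, against 9.80% over all genes tested. The estimate of a gene is moderated with those of other genes, so it is not the spread measured for that gene alone. The measured SD of log2 CPM within groups was 0.0994 for tetur07g06850 and 0.115 for tetur07g04600, counting error included. Reads were not divided by gene length, so the levels of both genes are not compared with each other.

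The levels of both orthologs differed little between groups. Given as CPM, the reads of a gene relative to the TMM-scaled size of its library, the group means of tetur07g06850 spanned a 1.25-fold range while those of tetur07g04600 spanned a 1.27-fold range and those of the median gene a 1.29-fold range. CYP392A11 spanned a 4.96-fold range in the same libraries.

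Gene tetur07g06850 had 84.1, 77.8, 75.1 and 83.8 CPM in the 4 libraries of mites treated with PBO, 91.6, 81.5, 83.9 and 90.3 CPM with DEF, and 87.9, 79.6, 74.1 and 73.8 CPM with DEM. With CsA it had 77.5, 72.9, 66.8 and 63.8 CPM, in FORM libraries 74.7, 72.4, 63.8 and 66.6 CPM and in CON libraries 78.2, 72.8, 73.5 and 69.0 CPM. The DEF libraries were all above those of FORM, CON and CsA. The PBO libraries were also all above the FORM libraries, but by a small margin and with some overlap with CON. Replicate 1 was the highest of the 4 libraries in all 6 groups, an order whose share among all genes was not computed. The group means were 80.2 ± 4.46 (PBO), 86.8 ± 4.90 (DEF), 78.9 ± 6.58 (DEM), 70.3 ± 6.14 (CsA), 69.4 ± 5.05 (FORM) and 73.4 ± 3.77 CPM (CON; SD, n = 4 each). In falling order the groups were DEF, PBO, DEM, CON, CsA and FORM, and no neighbours in this order differed beyond their spread (adjusted p from 0.330 to 0.901 in edgeR's quasi-likelihood test).

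Gene tetur07g04600 had 9.75, 9.79, 8.97 and 10.1 CPM with PBO, 10.3, 9.65, 11.7 and 11.1 CPM with DEF, and 13.3, 11.9, 11.6 and 11.5 CPM with DEM. It had 10.4, 11.02, 11.9 and 9.998 CPM with CsA, 10.7, 10.7, 8.39 and 10.3 CPM with formulation and 9.94, 9.56, 9.99 and 8.53 CPM in unsprayed mites. Here the DEM libraries were the highest: all 4 were above every PBO, FORM and CON library, and they overlapped with DEF and CsA. The group means were 9.66 ± 0.498 (PBO), 10.7 ± 0.907 (DEF), 12.1 ± 0.817 (DEM), 10.8 ± 0.826 (CsA), 10.01 ± 1.10 (FORM) and 9.50 ± 0.675 CPM (CON; SD, n = 4 each). The falling order was DEM, CsA, DEF, FORM, PBO and CON, and here too neighbours did not differ beyond their spread, with adjusted p of edgeR's quasi-likelihood test from 0.592 (DEF and FORM) to 1.00 (DEM and CsA).

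**Figure D1:**
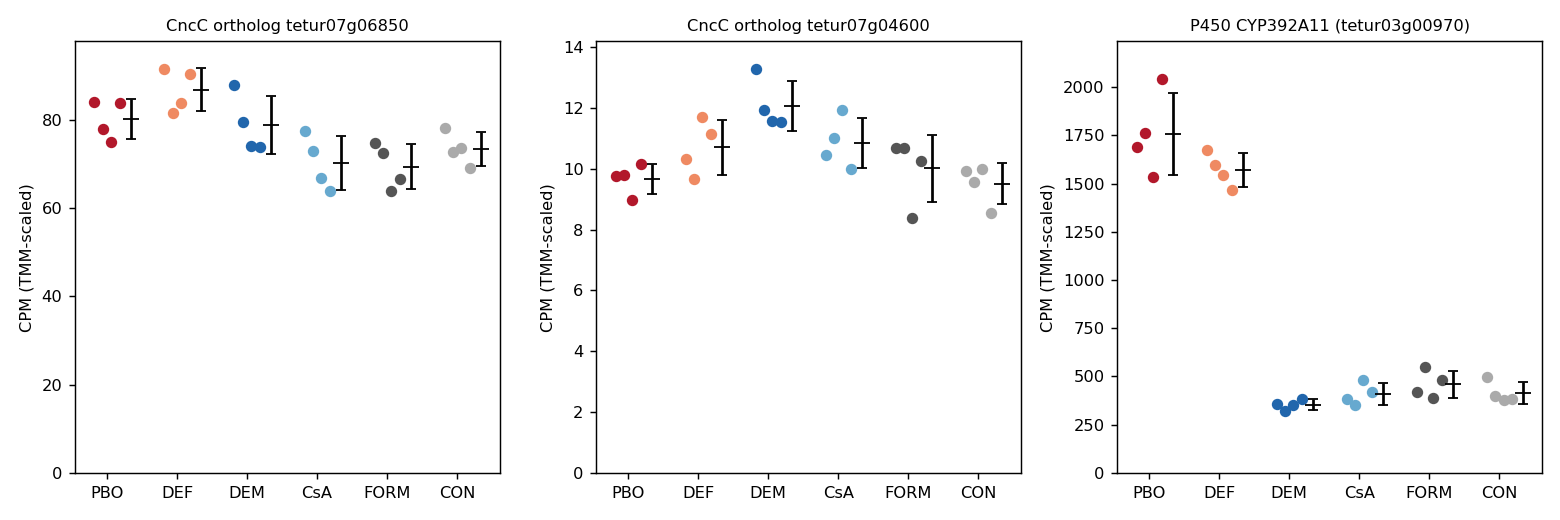
Levels of tetur07g06850, tetur07g04600 and CYP392A11 in CPM (vertical axis, from 0) by group, with a point for each library and a black mark for the mean ± SD of 4 libraries. The orthologs stayed between 63.8 and 91.6 CPM (tetur07g06850) and between 8.39 and 13.3 CPM (tetur07g04600), while CYP392A11 had at least 1467 CPM in every PBO and DEF library and at most 547 CPM in the others.

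A gene was called differentially expressed at a Benjamini-Hochberg adjusted p under 0.05 and an absolute fold change (FC) of at least 1.5. By this rule, neither CncC ortholog was called in any of the 4 comparisons of a synergist with formulation or in the comparison of formulation with unsprayed mites. Of these 10 tests, 1 had an adjusted p under 0.05 and 4 an unadjusted p under 0.05 in edgeR's quasi-likelihood test, and DESeq2 and limma-voom called none. Among all genes, an adjusted p under 0.05 was found for 8.79% with PBO, 8.75% with DEF, 11% with DEM and 3.62% with CsA over formulation. For formulation over unsprayed mites the share was 0.0314%. The share of all genes at an unadjusted p under 0.05 was not computed. All 10 of the 95% intervals were inside an FC of 1.5 in either direction. The intervals reached from an FC of 0.844, the lowest bound, to 1.38, the highest. The study, with the same thresholds on these data, had already reported neither ortholog as differentially expressed with a synergist after 24 h.

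Treatment with DEF gave the largest difference from formulation. Gene tetur07g06850 was higher in mites treated with DEF, with a mean of 86.8 CPM, against 69.4 CPM with formulation, a log2 FC of 0.32 (SE 0.0697, 95% interval 0.18 to 0.47, FC 1.25, adjusted p = 0.00420 in edgeR's quasi-likelihood test). It passed the threshold on p but not that on FC. Among all genes 8.75% had an adjusted p under 0.05 and 2.63% were called, and libraries all above those of FORM, as seen here, were found for 9.53% of genes. Compared with CON in place of FORM, the log2 FC of tetur07g06850 was 0.24 (adjusted p = 0.0217), where 13.7% of all genes had an adjusted p under 0.05 and 9.92% lay above CON in every DEF library. For DEF over FORM, all 4 markers of adult females were called. The vitellogenin genes had a log2 FC of 1.09 (tetur20g01230) and 0.67 (tetur07g05480), and the vasa genes −0.76 (tetur10g01960) and −0.82 (tetur10g01980). The part of these markers in the difference was not tested. Gene tetur07g04600 overlapped between DEF and FORM, with a log2 FC of 0.09 (SE 0.0931, 95% interval −0.10 to 0.28, adjusted p = 0.592).

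With PBO, tetur07g06850 had a mean of 80.2 CPM, against 69.4 CPM with formulation (log2 FC 0.21, SE 0.0697, 95% interval 0.06 to 0.35). All PBO libraries were above the FORM libraries, as for 8.38% of genes, but the adjusted p of edgeR's quasi-likelihood test was 0.0621. In this comparison 8.79% of all genes had an adjusted p under 0.05 and 2.61% were called. Against CON the log2 FC was 0.13 with an adjusted p of 0.205. Of the markers of adult females 1 was called with PBO, tetur20g01230 at a log2 FC of 0.59, and the vasa genes tetur10g01960 and tetur10g01980 had −0.54 and −0.47 (adjusted p = 0.000236 and 0.000462). Their part in the difference was not tested. Gene tetur07g04600 had a log2 FC of −0.05 for PBO over FORM (SE 0.0933, 95% interval −0.25 to 0.14, adjusted p = 0.773), and its libraries overlapped.

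With DEM it was tetur07g04600 whose libraries were all above those of FORM, as for 11.7% of genes, at a mean of 12.1 CPM with DEM and 10.01 CPM with formulation. The log2 FC was 0.27 (SE 0.0916, 95% interval 0.08 to 0.46) and the adjusted p of edgeR's quasi-likelihood test 0.0596, in a comparison where 11% of all genes had an adjusted p under 0.05 and 2.17% were called. Against CON, where replicate 3 of FORM plays no part, the log2 FC was 0.34 and the adjusted p 0.0222, where 12.2% of all genes had an adjusted p under 0.05 and 10.1% lay above CON in every DEM library. That FORM library was the lowest of all for this gene, at 8.39 CPM, and without it the log2 FC over FORM was 0.19 (adjusted p = 0.222). Gene tetur07g06850 had a log2 FC of 0.18 for DEM over FORM (SE 0.0697, 95% interval 0.04 to 0.33, adjusted p = 0.0859), with overlapping libraries, and one of 0.12 without replicate 1 of DEM (adjusted p = 0.332). Between libraries of the same number, DEM was above FORM in 4 of 4, but replicate numbers are not known to pair libraries. The share of all genes in this order was not computed.

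CsA and the formulation itself gave the smallest differences for tetur07g06850. For CsA over FORM its log2 FC was 0.02 (95% interval −0.13 to 0.16, adjusted p = 0.901) and that of tetur07g04600 was 0.11 (95% interval −0.08 to 0.30, adjusted p = 0.471), where 3.62% of all genes had an adjusted p under 0.05 and 1.04% were called. For FORM over CON the log2 FC was −0.08 for tetur07g06850 (95% interval −0.22 to 0.06) and 0.08 for tetur07g04600 (95% interval −0.12 to 0.27), both with an adjusted p of 0.999 in edgeR's quasi-likelihood test. Here 0.0314% of all genes had an adjusted p under 0.05 and 0.0236% were called. For every one of these 4 values the libraries of the groups compared overlapped.

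**Figure D2:**
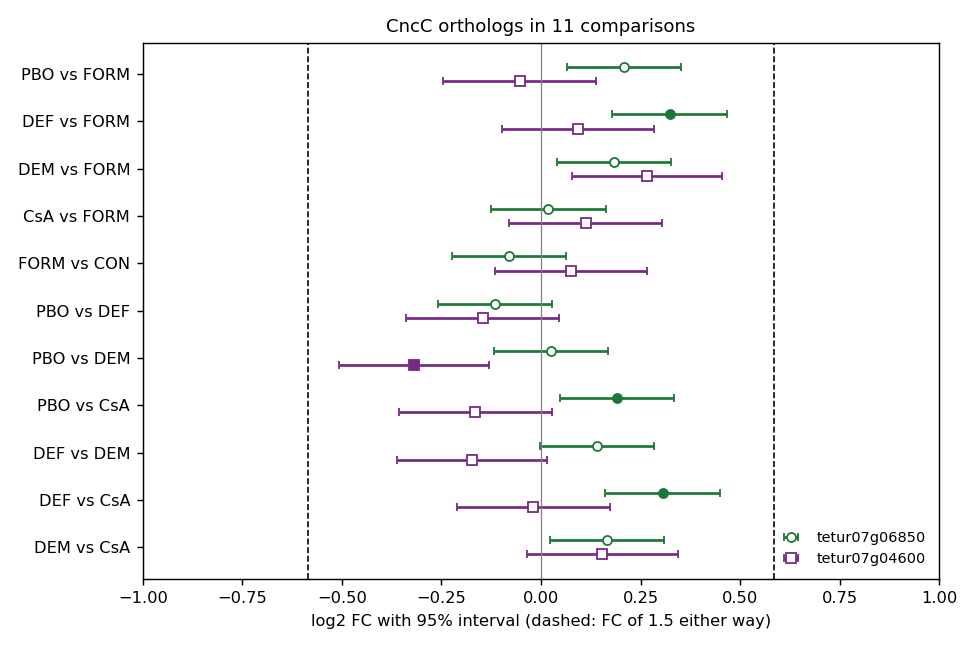
Log2 FC of the first named group over the second (horizontal axis) with its 95% interval, for tetur07g06850 (green circles) and tetur07g04600 (purple squares) in 11 comparisons. Filled markers have an adjusted p under 0.05 in edgeR's quasi-likelihood test, and every interval lies between the dashed lines at an FC of 1.5 in either direction.

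The difference between synergists was tested directly in the same fit. Neither ortholog was called in any of these 12 tests, and DESeq2 and limma-voom again called none. In edgeR's quasi-likelihood test 3 had an adjusted p under 0.05 and 4 an unadjusted p under 0.05. The share of all genes with an adjusted p under 0.05 ran from 0.746% (DEM and CsA) to 36.4% (PBO and DEM). That at an unadjusted p under 0.05 was not computed. The genes called made up 0.291% of all genes for PBO and DEF, 11.5% for PBO and DEM, 9.67% for PBO and CsA, 7.95% for DEF and DEM, 6.25% for DEF and CsA and 0.589% for DEM and CsA. All 12 intervals were again inside an FC of 1.5, the farthest bound lying at an FC of 1.42.

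Different pairs of synergists passed the threshold on p for each ortholog, and the difference between the orthologs themselves was tested through their ratio. Gene tetur07g06850 was higher with DEF than with CsA, at 86.8 and 70.3 CPM (log2 FC 0.31, SE 0.0698, 95% interval 0.16 to 0.45, adjusted p = 0.00341 in edgeR's quasi-likelihood test), and the DEF libraries were all above those of CsA, as for 9.91% of genes. It was also higher with PBO than with CsA, at 80.2 and 70.3 CPM (log2 FC 0.19, 95% interval 0.05 to 0.33, adjusted p = 0.0394), although the libraries overlapped. With 1 library left out, its adjusted p ran from 0.0250 to 0.138, and it stayed under 0.05 only without replicate 1 of CsA (0.0250) or replicate 3 of PBO (0.0383). An adjusted p under 0.05 was found for 20% of all genes between DEF and CsA and for 31.9% between PBO and CsA.

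Gene tetur07g04600 was lower with PBO than with DEM, at 9.66 and 12.1 CPM, a log2 FC of −0.32 (SE 0.0918, 95% interval −0.51 to −0.13, adjusted p = 0.00860 in edgeR's quasi-likelihood test). All PBO libraries were below all DEM libraries, as for 18.2% of genes, and 36.4% of genes had an adjusted p under 0.05. For the same pair tetur07g06850 had a log2 FC of 0.02 (adjusted p = 0.802). The remaining direct tests of both orthologs had adjusted p from 0.140 to 1.00, in comparisons where 1.41% (PBO and DEF), 25.5% (DEF and DEM) or 0.746% (DEM and CsA) of all genes had an adjusted p under 0.05.

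The ratio of reads of the orthologs within a library does not depend on how libraries are scaled. For each 100 reads of tetur07g06850 there were 11.6 to 12.6 reads of tetur07g04600 with PBO (mean 12.1 ± 0.412), 11.2 to 13.9 with DEF (12.3 ± 1.16) and 15.0 to 15.6 with DEM (15.3 ± 0.335; SD, n = 4 each). The CsA libraries had 13.5 to 17.8 (15.5 ± 1.80), the FORM libraries 13.1 to 15.4 (14.4 ± 0.959) and the CON libraries 12.4 to 13.6 (12.9 ± 0.530). All PBO libraries were thus below all FORM, DEM and CsA libraries, and those of DEF were below those of DEM. The share of other gene pairs with such an order was not computed.

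Exact two-sided permutation tests over the 35 splits of 8 libraries can give no p below 0.0286. The log2 difference in the ratio of the orthologs was −0.25 for PBO against formulation, −0.35 for PBO against DEM, −0.36 for PBO against CsA and −0.32 for DEF against DEM, each with an exact p of 0.0286, the smallest possible. Adjusted over the 11 comparisons of this ratio, that p is 0.0786, so no difference in the ratio passed 0.05. It passes, at 0.0471, only when the 22 tests of CYP392A11 ratios are adjusted with them. For DEF against formulation the log2 difference was −0.22, and for formulation against unsprayed mites it was 0.15. Each of these had an exact permutation p of 0.0571 (adjusted p = 0.0898). The ratio with PBO also overlapped with that of unsprayed mites.

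**Figure D3:**
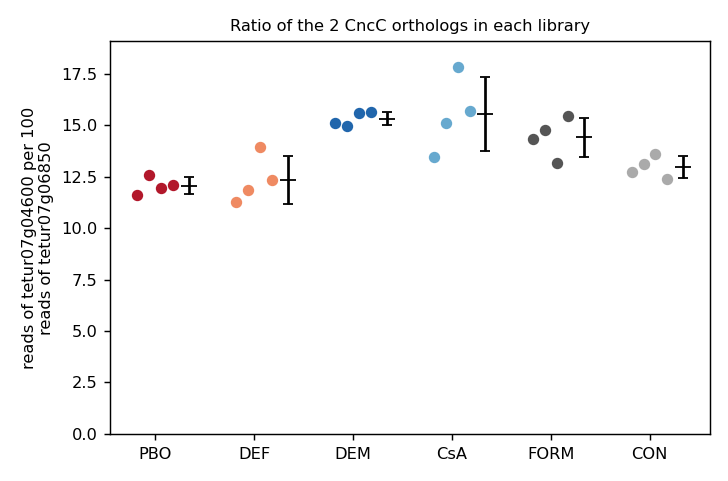
Reads of tetur07g04600 per 100 reads of tetur07g06850 (vertical axis, from 0) by group, with a point for each library and a black mark for the mean ± SD of 4 libraries. The means were 12.1 with PBO and 12.3 with DEF, against 15.3 with DEM, 15.5 with CsA, 14.4 with formulation and 12.9 in unsprayed mites.

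CYP392A11 rose with PBO and with DEF. Its level was 1758 ± 213 CPM with PBO and 1570.5 ± 87.6 CPM with DEF, against 459.6 ± 70.4 CPM with formulation (SD, n = 4 each), with a log2 FC of 1.94 for PBO (SE 0.114, FC 3.82, adjusted p = 5.14e-11) and 1.77 for DEF (SE 0.114, FC 3.42, adjusted p = 3.36e-10) in edgeR's quasi-likelihood test. It was at 354 ± 27.2 CPM with DEM (log2 FC −0.38, FC 0.770, adjusted p = 0.0322, not called), 409 ± 56.8 CPM with CsA (log2 FC −0.17, adjusted p = 0.352) and 414 ± 55.7 CPM in unsprayed mites. CYP392A12 (tetur03g00830), another P450 of the CYP392A subfamily, was called in the same direction, with a log2 FC of 1.27 for PBO and 1.20 for DEF over formulation (adjusted p = 1.32e-06 and 1.05e-06). CYP392A11 and tetur07g06850 both had their highest means with PBO and DEF, but did not change in proportion over the groups. With DEM, where CYP392A11 was at 354 CPM, tetur07g06850 had 78.9 CPM. With PBO, where CYP392A11 was at 1758 CPM, tetur07g06850 had 80.2 CPM.

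Library by library, the reads of CYP392A11 per read of an ortholog were higher with PBO and DEF and lower with DEM than with formulation. There were 21.9 ± 2.01 reads of CYP392A11 per read of tetur07g06850 with PBO, 18.1 ± 1.39 with DEF, 4.52 ± 0.585 with DEM and 5.89 ± 1.20 with CsA, against 6.63 ± 0.925 with formulation and 5.63 ± 0.511 in unsprayed mites (SD, n = 4 each). Over formulation the log2 difference of this ratio was 1.73 for PBO, 1.46 for DEF and −0.55 for DEM. Each had an exact permutation p of 0.0286 (adjusted p = 0.0393 over the 22 tests of CYP392A11 ratios). This is the smallest p possible, and most tests that reach it set PBO or DEF against formulation, DEM or CsA. The rise of CYP392A11 with PBO and DEF thus lowers the adjusted p of the remaining tests too, such as DEM against formulation. For CsA it was −0.18 (adjusted p = 0.359, exact permutation test). With PBO and DEF, ratios to either ortholog mostly restate the rise of CYP392A11, since the orthologs changed little. The study had already found this P450 higher with PBO in these data.

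Against tetur07g04600, too, PBO and DEF had the highest means and DEM the lowest. There were 181 ± 13.8 reads of CYP392A11 per read of tetur07g04600 with PBO, 148 ± 18.7 with DEF, 29.4 ± 3.20 with DEM and 37.7 ± 4.60 with CsA, against 45.96 ± 4.94 with formulation and 43.6 ± 5.11 in unsprayed mites (SD, n = 4 each). The log2 difference over formulation was 1.98 for PBO, 1.68 for DEF and −0.64 for DEM (adjusted p = 0.0393 each, exact permutation test), and −0.29 for CsA (adjusted p = 0.105). Both ratios were also higher with PBO than with DEF, by a log2 difference of 0.27 for tetur07g06850 and 0.30 for tetur07g04600 (adjusted p = 0.0393 each, exact permutation test). For this pair and for DEM over formulation, that adjusted p again rests on the tests of PBO or DEF against formulation, DEM or CsA. None of the 3 genes differed alone for PBO over DEF in edgeR's quasi-likelihood test. The log2 FC was 0.16 for CYP392A11 (adjusted p = 0.517), −0.12 for tetur07g06850 (0.456) and −0.15 for tetur07g04600 (0.488).

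**Figure D4:**
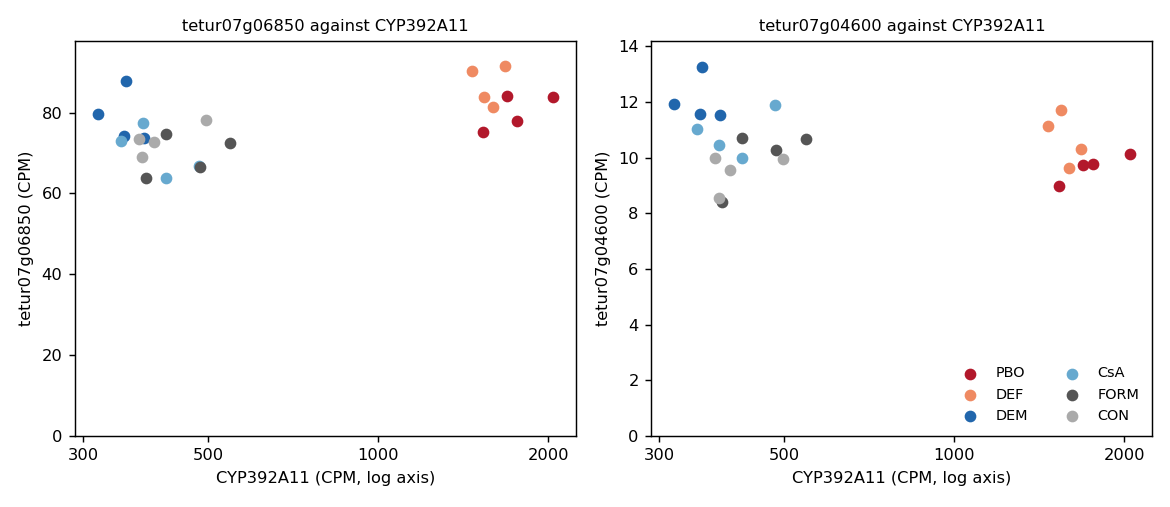
Level of tetur07g06850 (left) and tetur07g04600 (right) in CPM (vertical axes, from 0) against that of CYP392A11 in CPM (horizontal log axis), with a point for each of the 24 libraries coloured by group. The PBO and DEF libraries form a cluster of their own at 1467 to 2044 CPM of CYP392A11, while the range of each ortholog overlaps between the clusters.

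Since CYP392A11 splits the libraries into 2 clusters, PBO and DEF on one side and the 4 other groups on the other, the relation of an ortholog with CYP392A11 was computed within the clusters and after centring by group. Within the 8 libraries of PBO and DEF, tetur07g06850 and CYP392A11 had r = −0.07 (permutation p = 0.875, rho = −0.10 with p = 0.840), and 0.21 without replicate 4 of PBO and of DEF. Within the 16 other libraries r was −0.35 (permutation p = 0.177, rho = −0.44 with p = 0.0867), and −0.61 without replicate 2 of FORM and replicate 1 of CON. After centring each group on its mean, r was 0.10 over 24 libraries (permutation p = 0.696, rho = 0.12 with p = 0.634) and −0.07 without replicate 1 of CON and replicate 2 of FORM. The libraries left out were those farthest from the median of CYP392A11. Within a cluster values were not centred and permutations crossed its groups, so differences between groups enter these r and p. No relation of tetur07g06850 with the P450 was detected within the clusters or after centring, at this number of libraries.

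For tetur07g04600 and CYP392A11, r was −0.21 within PBO and DEF (permutation p = 0.612; rho = −0.12, p = 0.793), −0.18 within the 16 other libraries (permutation p = 0.509; rho = −0.36, p = 0.171) and 0.40 after centring by group (permutation p = 0.104; rho = 0.29, p = 0.228). Without the farthest libraries these were −0.13, −0.19 and 0.33. Adjusted over the 9 relations computed, the p of r was at least 0.234 for every relation of an ortholog with CYP392A11. Between the orthologs, r after centring was 0.57 (permutation p = 0.0124, adjusted p = 0.0596; rho = 0.60, p = 0.00831, adjusted p = 0.0748) and 0.47 without replicate 3 of FORM and replicate 4 of CON. Within the 8 libraries of PBO and DEF it was 0.65 (permutation p = 0.0733, adjusted p = 0.220), and 0.85 without replicates 3 and 4 of DEF. Within the 16 libraries outside PBO and DEF it was 0.61 (permutation p = 0.0132, adjusted p = 0.0596), but 0.24 without replicate 3 of FORM and replicate 1 of DEM, on which it rested. Both genes were counted in the same libraries and share their scaling.

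Over all 24 libraries and 12735 other genes, the genes most like tetur07g06850 in log2 CPM were tetur02g01720 and tetur08g00200 (r = 0.81 each). CYP392A11 was at rank 192 and the other ortholog at rank 1609. The genes most like tetur07g04600 were tetur17g00580 and tetur16g00680 (r = 0.80 each), with tetur07g06850 at rank 2802 and CYP392A11 at rank 8309. The files pair none of these 4 IDs with a name. These correlations are over uncentred values and include the differences between groups.

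The genes for detoxification that the study lists were called in many cases where the orthologs were not. The lists hold only genes that the study called differentially expressed on the same libraries, not whole families. Their direction is thus not independent evidence, and selection raises their shares called above those of all genes. Among all genes tested, 1.01% rose and 1.59% fell with PBO, 1.44% rose and 1.19% fell with DEF, 1.66% rose and 0.51% fell with DEM, and 0.557% rose and 0.487% fell with CsA. Of 19 P450s, 13 rose with PBO (median log2 FC 0.78 over the list), and 10 rose and 1 fell with DEF (median 0.73). With DEM 1 rose and 6 fell (median −0.49), among them CYP392A3 (tetur07g06460, log2 FC −1.57), and with CsA 3 rose (median −0.17), among them CYP385C4 (tetur11g05520, log2 FC 1.12). The median over all genes tested lay between −0.00318 (DEF) and 0.0101 (CsA) in these comparisons.

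Of 14 UGTs, 8 rose with PBO (median log2 FC 0.72) and 12 with DEF (median 0.85). With DEM 1 rose and 7 fell (median −0.53), and with CsA 2 fell (median 0.05). UGT68 (tetur22g00480) had a log2 FC of 1.28 with PBO and 1.58 with DEF, and UGT63 (tetur22g00360) one of −1.79 with CsA. Of 6 GSTs, 2 rose with PBO (median 0.46) and 1 with DEF (median 0.07), none was called with DEM (median −0.48) and 4 fell with CsA (median −0.69). The delta class GST tetur29g00220 had a log2 FC of 1.30 with PBO and 0.98 with DEF.

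Of 5 carboxyl/choline esterases, 2 rose with PBO (median log2 FC 1.03), 4 rose with DEF (median 1.24), none was called with DEM (median −0.22) and 1 fell with CsA (median 0.32). All 3 class C ABC transporters of the list rose with DEF (median 0.83), 1 rose with DEM (median 0.28) and none was called with PBO (median 0.47) or CsA (median 0.42). Of 12 short-chain dehydrogenases and reductases, 5 rose with PBO (median 0.17), 2 rose and 1 fell with DEF (median 0.07), and 6 fell with DEM (median −0.57) and 6 with CsA (median −0.68). The single superoxide dismutase listed fell with DEF (log2 FC −0.62) and was not called with another synergist. No gene of these lists was called between FORM and CON.

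The gene tetur07g03900 is annotated as a homolog of nejire, the Drosophila counterpart of the coactivator CBP, which in mammals works with NRF2. Its level was 20.6 ± 1.40 CPM with PBO, 38.3 ± 9.83 CPM with DEF, 78.2 ± 10.4 CPM with DEM and 68.6 ± 27.6 CPM with CsA, against 39.1 ± 3.04 CPM with formulation and 47.1 ± 4.65 CPM in unsprayed mites (SD, n = 4 each). It fell with PBO (log2 FC −0.92, adjusted p = 0.0212) and rose with DEM (log2 FC 1.00, adjusted p = 0.0143) in edgeR's quasi-likelihood test. With CsA its log2 FC was 0.81 (adjusted p = 0.0516), and the CsA libraries spread from 30.7 to 93.7 CPM. For PBO over DEM its log2 FC was −1.92 (adjusted p = 6.52e-06), beside −0.32 for tetur07g04600 and 0.02 for tetur07g06850. Its part in the levels of the orthologs was not tested. Of all genes, 1.59% were called lower with PBO and 1.66% higher with DEM over formulation, and 11.5% were called between PBO and DEM. The study's results on the same libraries were known when the nejire homolog was named, so its direction is not independent evidence. Keap1 and Maf genes were not looked at.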

How the data were processed

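The deposited values are raw counts of 19087 genes in 24 libraries. The authors made them with FastQC 0.11.4 (quality), STAR 2.5.0a (alignment), SAMtools 0.1.19 (sorting) and HTSeq 0.6.0 (counting by strand), as the labels and the study's methods state. HTSeq by default drops reads that map to several places, so near-identical copies may be undercounted. Replicates differed by more than sampling noise (36 pairs, chi-square per degree of freedom 3.47 to 54.1).

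The tests ran in edgeR 4.0.16 under R 4.3.3. The function filterByExpr kept 12736 genes, libraries were scaled by TMM, and a quasi-likelihood model with robust moderation took all libraries at once, with 1 mean per group and Benjamini-Hochberg adjustment over all genes kept. Genes were called at the study's thresholds. Log2 CPM used a prior count of 2, SEs were derived from the F statistic, and intervals are at 95%. Relations after centring used 100000 permutations within groups. Those within the 16 libraries outside PBO and DEF used 100000 permutations across their groups. Those within the 8 libraries of PBO and DEF used all orderings of these libraries. The script was tested on simulated data.

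The members and lists were chosen with earlier results of these data known. Named genes were the orthologs, CYP392A11, CYP392A12, the nejire homolog, the genes most alike over the libraries and the member of each list with the largest absolute log2 FC in each synergist comparison, of which some are given. Lists came from words in the descriptions of the study's DEGs. Lists of Keap1, Maf and antioxidant genes by words in the reference annotation were not run, since its gene IDs do not pair with those of the counts. Sequences and coordinates were not used here.

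Alternatives replaced the tool (DESeq2 1.42.0 without shrinkage, or voom in limma 3.58.1), the scaling (DESeq2 size factors), the filter (none, or a minimum of 10 counts throughout), the model (only the groups compared, or a replicate block), the control (CON, or CON pooled with FORM) and the rule for calls (no FC threshold, or an FC of 1.5 as null hypothesis). Ratios were repeated with 0.5 counts added, and each library was left out in turn. Robust moderation was taken into the model only after a first fit without it had been seen, from its count of calls over all genes, and the fit without it is kept as an alternative chosen after seeing the data. Exact tests of ratios were adjusted over the 11 comparisons of the orthologs' ratio and over the 22 of CYP392A11 ratios.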

Additional observations from a re-analysis of the deposited data

Results flagged for a closer look

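Of the differences between synergists, 3 were flagged because their direct test had an adjusted p under 0.05 in edgeR's quasi-likelihood test. For tetur07g04600 the effect against formulation was lower with PBO than with DEM, by a log2 difference of −0.32. For tetur07g06850 it was higher with DEF than with CsA, by 0.31, and higher with PBO than with CsA, by 0.19. None reached an FC of 1.5. An adjusted p under 0.05 was common in these comparisons. Among all genes it was found for 36.4% between PBO and DEM, 20% between DEF and CsA and 31.9% between PBO and CsA. Of the 36 groups of 4 libraries looked at for a library far from the others, over both orthologs, CYP392A11 and the 3 ratios of reads, none was found by Dixon's limit, which chance passes in about 1 in 20 groups.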

How the results depend on the processing

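Neither ortholog was called in any comparison under any of 412 alternative values other than by dropping the threshold on FC, and no alternative's 95% interval reached an FC of 1.5. By the adjusted p alone, tetur07g06850 passed for DEF over FORM (0.32), PBO over CsA (0.19) and DEF over CsA (0.31), tetur07g04600 for PBO over DEM (−0.32) and CYP392A11 for DEM over FORM (−0.38). The sign of 13 values turned, all of them close to 0: tetur07g06850 for PBO over DEM was −0.0090 with at least 10 counts in every library, tetur07g06850 for CsA over FORM was −0.063 with CON as control and −0.023 with CON and FORM pooled, and tetur07g04600 for PBO over FORM was 0.023 with CON as control. With each library left out in turn, tetur07g06850 ran from −0.028 to 0.062 for CsA over FORM and from −0.019 to 0.088 for PBO over DEM, and tetur07g04600 from −0.064 to 0.034 for DEF over CsA. The cause was not tested.

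For DEF over FORM, tetur07g06850 kept an adjusted p under 0.05 in 18 of 18 alternatives, and without a library from 0.00474 to 0.0264. For DEF over CsA it did so in 16 of 16, as did tetur07g04600 for PBO over DEM. For PBO over CsA, tetur07g06850 did so in 6 of 16. With CON and FORM pooled as control, the adjusted p was 0.0492 for tetur07g06850 with PBO and 0.00964 for tetur07g04600 with DEM. The r with CYP392A11, positive after centring by group, was −0.068 for tetur07g06850 in PBO and DEF, −0.35 in the other libraries and −0.069 centred without the farthest libraries, and for tetur07g04600 −0.21 in PBO and DEF and −0.18 in the other libraries.

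Over all genes, libraries of the same replicate number were at most weakly alike (correlations of deviations from −0.17 to 0.21). The mean of these correlations ran from −0.025 (CsA and FORM) to 0.095 (FORM and CON). Replicate 1 was the highest library of tetur07g06850 in 6 of 6 groups, an order whose share among all genes was not computed. Replicate numbers are not known to pair libraries, so the smaller p-values of a model with a replicate block rest on an unverified pairing. With a replicate block, tetur07g06850 had a log2 FC of 0.21 for PBO (adjusted p = 0.0122), 0.32 for DEF (0.000255) and 0.18 for DEM (0.0208) over FORM, and tetur07g04600 one of 0.27 for DEM (0.0552), with no call changed. With a median of 163 reads a library, tetur07g04600 has a counting error of 7.76%, which limits how small a difference can be seen.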
